A study of Mus musculus with 6 samples.

Results

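The replication-dependent histone genes are the clustered genes whose symbols begin with Hist1h, Hist2h, Hist3h or Hist4h. The deposited table of 24060 mouse genes held 68 of them, chosen by symbol alone: 6 encode the linker histone H1, 18 H2A, 19 H2B, 12 H3 and 13 H4. Retinal ganglion cells (RGCs), the neurons whose axons form the optic nerve, were purified from C57BL/6 mouse retinas at embryonic day 18 (E18, 3 samples, labelled 1, 3 and 4) and postnatal day 5 (P5, 3 samples, labelled 6, 8 and 9). No sample of either age was labelled as treated or genetically altered. The retinas had been dissociated with papain, macrophages had been removed with antibodies, and RGCs had been captured on anti-CD90 (Thy1) antibody, so both ages were selected on the same surface antigen. The comparison of the ages was made in the study because RGCs extend axons readily at E18 and have lost much of that ability by P5. Whether a sample pooled several animals, and whether the samples of an age came from separate animals, was not given, so the p-values below measure only the spread between these samples.

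Histones are the proteins around which DNA is wound. A cell that copies its genome must make a second set of them, and most of that supply comes from the clustered genes, which have no introns in their coding parts and are transcribed mainly during DNA synthesis. Their mRNAs are the main class of animal mRNA that ends in a short conserved stem-loop instead of a poly(A) tail, and the stem-loop binding protein Slbp, the U7 small nuclear ribonucleoprotein and a cleavage complex make and protect that end. RGCs are postmitotic neurons, and cells that have left the cycle draw chiefly on replacement histones, such as H3.3, which are encoded elsewhere in the genome by polyadenylated mRNAs.

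The stem-loop was the sequence feature most particular to the histone transcripts. A stem-loop of 16 bases was found in the GENCODE M21 transcripts (GRCm38, the same assembly as mm10) of 44 of the 68 genes, compared with 57 of 55341 annotated genes (0.103%) over the whole annotation. Of those 57 genes, 13 were not members, and one of these was H2afx, a replacement H2A. The remaining 24 members had annotated transcripts in which these letters did not occur. Some of these transcripts are short, at 312 bases for Hist1h4k and 381 for Hist1h2bn and Hist2h2bb. Whether they reach the end of the message was not tested, so the genes themselves need not lack the stem-loop. The letters were searched over whole transcripts, so the loop need not lie at the annotated end. After the loop the annotated transcript ran on for 3 bases in Hist1h2ap and for 4884 in Hist1h1d, the extremes among the 44 genes. The 44 stem-loops took 6 forms. They are shown because the form divided by histone type, with the loop in capitals and 5 flanking bases on each side in lower case, as DNA letters in the sense of the gene.
Hist1h1d: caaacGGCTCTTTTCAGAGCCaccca
Hist1h3e: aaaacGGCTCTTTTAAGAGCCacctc
Hist2h2ac: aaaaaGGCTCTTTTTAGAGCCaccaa
Hist1h4d: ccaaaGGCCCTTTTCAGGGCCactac
Hist1h4j: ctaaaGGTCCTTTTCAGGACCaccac
Hist2h4: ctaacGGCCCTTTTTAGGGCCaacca

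The Hist1h1d form (chr13:23555787-23555802, plus strand) was the commonest and was found in 26 members of the types H1, H2A, H2B and H3. The Hist1h3e form (chr13:23561903-23561918, minus strand) was found in 6 members, and the Hist2h2ac form (chr3:96220418-96220433, minus strand) in 1 member. The other 3 forms occurred only in H4 genes: the Hist1h4d form (chr13:23581950-23581965, plus strand) in 7, the Hist1h4j form (chr13:21735437-21735452, plus strand) in 2 and the Hist2h4 form (chr3:96262939-96262954, minus strand) in 2.

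Promoter windows of 300 bases (250 before and 50 after the annotated start) were given by RefSeq for 57 of the 68 genes, on GRCm38. The letters CCAAT were found on either strand in 49 of the 57 windows (86%) against 37.4% of 32851 windows in the mouse set. They were in every H1, H2A, H2B and H3 window and in 3 of 11 H4 windows. TATAAA was found in 34 windows (59.6%, against 13.6%). TTTGCAT, the core of the octamer element known from H2B promoters, was found in 14 windows (24.6%, against 4.63%), of which 7 belonged to H2A and 6 to H2B genes. AAACACA, an element known from H1 promoters, was found in 9 windows (15.8%, against 7.18%), among them 5 of 6 H1 windows. Both strands were searched, none of the 4 sets of letters contains another, and a match describes the letters only. Windows of several neighbouring H2A and H2B genes overlap, such as chr13:23571171-23571470 (Hist1h2ae) and chr13:23571150-23571449 (Hist1h2bg). The same site can therefore be counted for both genes of such a pair, and the counts of windows are not counts of separate sites. The 250 bases before the start are shown for 4 genes that differed in the change between the ages described below, with every match to these 4 motifs on either strand in capitals.
Hist1h1d: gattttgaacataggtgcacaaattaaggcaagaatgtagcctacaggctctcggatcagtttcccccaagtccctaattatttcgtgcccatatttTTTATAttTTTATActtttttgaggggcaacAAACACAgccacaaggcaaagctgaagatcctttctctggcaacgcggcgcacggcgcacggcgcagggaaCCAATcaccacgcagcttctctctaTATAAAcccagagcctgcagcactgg
Hist1h2bb: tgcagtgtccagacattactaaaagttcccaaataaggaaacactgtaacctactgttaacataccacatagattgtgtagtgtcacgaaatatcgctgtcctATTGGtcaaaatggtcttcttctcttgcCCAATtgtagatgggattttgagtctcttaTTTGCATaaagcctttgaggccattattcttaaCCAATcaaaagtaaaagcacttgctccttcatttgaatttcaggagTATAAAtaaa
Hist1h4d: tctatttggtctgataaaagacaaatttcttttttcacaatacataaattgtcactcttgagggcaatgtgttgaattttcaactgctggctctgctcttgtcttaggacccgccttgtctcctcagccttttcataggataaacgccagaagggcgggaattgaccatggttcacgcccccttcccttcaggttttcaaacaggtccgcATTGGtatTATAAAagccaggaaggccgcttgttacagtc
Hist2h2ab: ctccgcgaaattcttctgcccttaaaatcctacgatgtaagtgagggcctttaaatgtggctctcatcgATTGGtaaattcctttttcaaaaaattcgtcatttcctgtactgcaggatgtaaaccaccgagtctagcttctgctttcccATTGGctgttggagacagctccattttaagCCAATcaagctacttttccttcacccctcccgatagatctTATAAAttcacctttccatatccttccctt

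These windows lie at chr13:23554782-23555031 (Hist1h1d), chr13:23746484-23746733 (Hist1h2bb), chr13:23581318-23581567 (Hist1h4d) and chr3:96219635-96219884 (Hist2h2ab), all on the plus strand. Hist1h1d and Hist1h2bb were among the genes that were several-fold higher at E18, Hist1h4d was moderately higher, and Hist2h2ab did not pass the test, although its window holds CCAAT and TATAAA as the others do. Hist1h4d and Hist2h2ab held the same 2 of the 4 motifs.

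Levels are given as CPM, the reads of a gene scaled to a fixed library size, after TMM scaling of the raw counts. Between 81213639 and 114512853 reads per sample were assigned to genes, so that 3 counts correspond to 0.0268 to 0.0362 CPM, and these figures cover counting error only. RGC markers were abundant at both ages: the summed level of 15 of them was 9883 to 11657 CPM at E18 and 10043 to 11165 CPM at P5. Of the 68 histone genes, 8 had no read in any sample, 5 were below the filter on low counts and 55 were tested. The 8 without a read were the testis genes Hist1h2aa and Hist1h2ba, and Hist1h2ap, Hist1h2bq, Hist1h2br, Hist2h2aa1, Hist2h3c1 and Hist2h3c2. A count of 0 allows a level of up to 0.0268 to 0.0362 CPM in a sample. The last 6 of these share 32.9% to 95.9% of their 100-base stretches with other genes, against 0.0% for Hist1h2aa and 27.4% for Hist1h2ba, so that reads from them may have been lost or given to a copy when reads were counted per gene.

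Replication-dependent histone mRNAs were higher at E18 than at P5 across all 5 types. Of the 55 tested genes, 50 were higher at E18 at an adjusted p under 0.05 (edgeR's quasi-likelihood test, Benjamini-Hochberg adjustment over 16449 genes), against a background of 20.8% of all tested genes. None was lower by edgeR, against a background of 22.5%. At an unadjusted p under 0.05 the counts were 50 higher and 1 lower, and DESeq2 also called 50 higher and 1 lower. The gene called lower by DESeq2 was Hist2h2ab. At least 2-fold higher were 39 of the 55, against 6.39% of all genes. In 49 genes every E18 sample was above every P5 sample, against 27.6% of all genes, in 1 every E18 sample was below, and in 5 the ages overlapped. The median log2 fold change, E18 over P5, was 1.73 over the 55 genes and 0.0047 over all tested genes. Hist1h2an was the 1 gene that passed the filter through its E18 counts alone. The 5 genes that did not pass the test were Hist1h2bh, Hist1h4b, Hist1h4f, Hist2h2ab and Hist2h2ac.

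**Figure D1:**
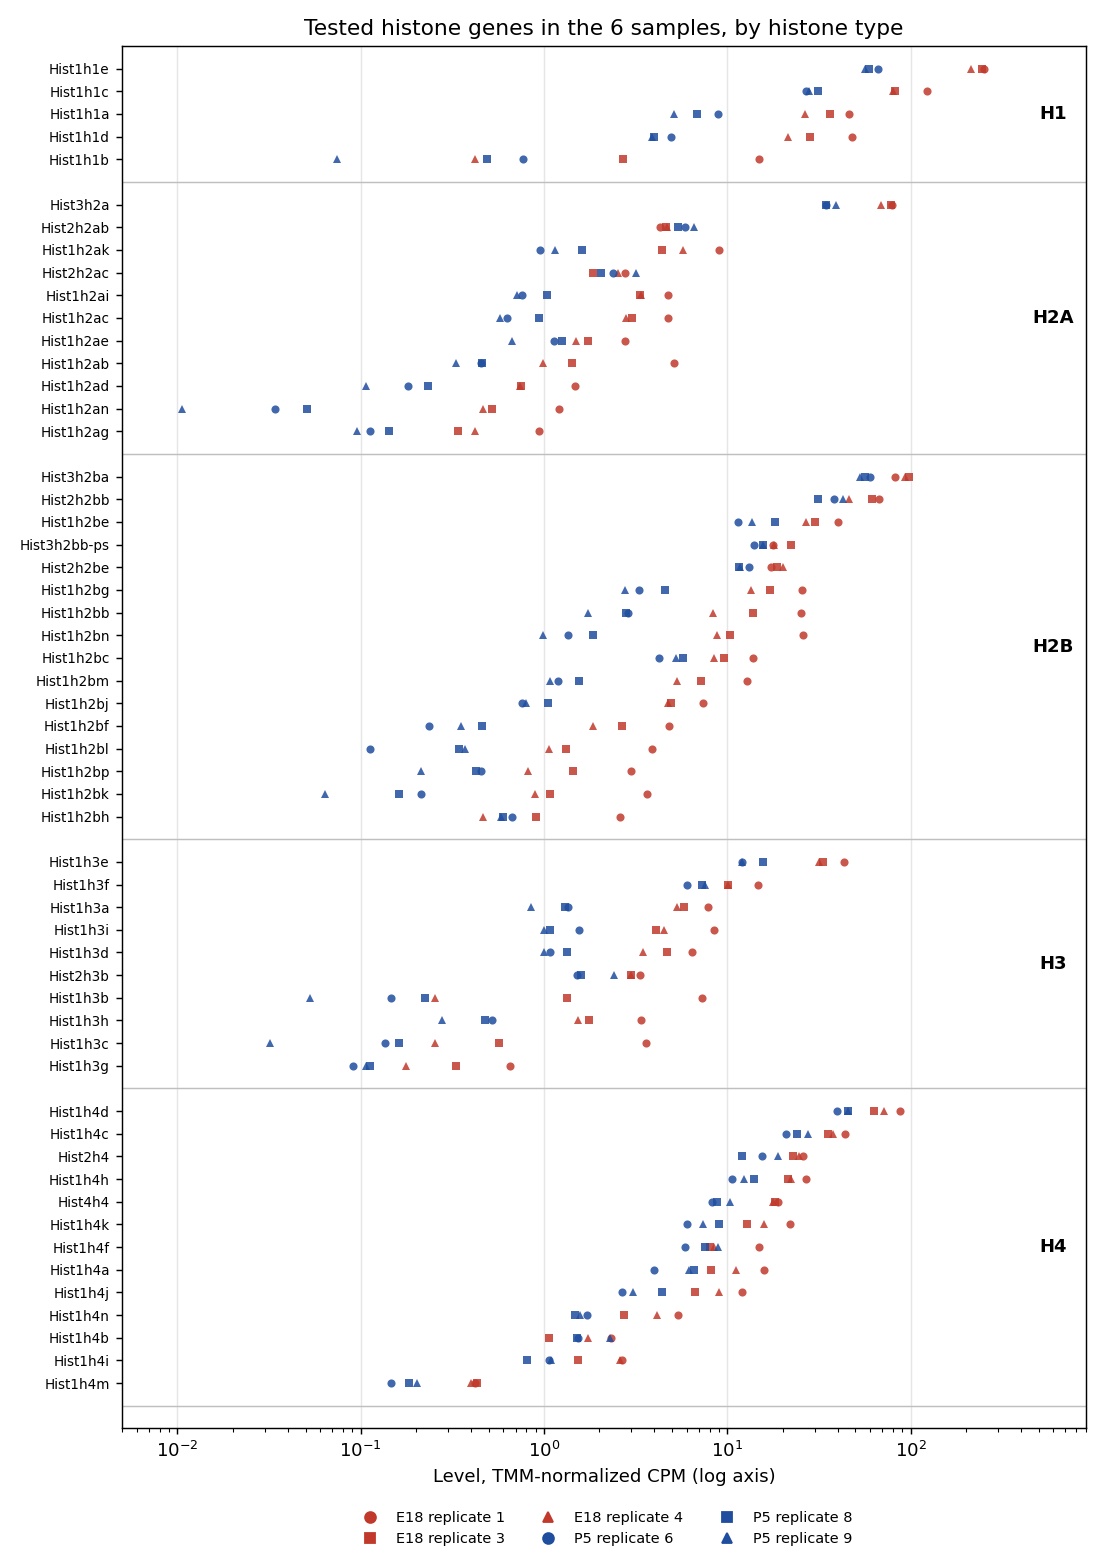
Level of each of the 55 tested histone genes in each sample, as TMM-normalized CPM on a log axis, with E18 samples in red and P5 samples in blue and the marker shape giving the replicate. Red points lie to the right of blue points in 49 of the 55 rows, and the largest spread within E18 is seen for Hist1h1b, Hist1h3b and Hist1h3c.

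The plot of levels in each sample shows that the genes of a type differed widely among themselves. Means over the 6 samples ran from 0.34 CPM (Hist1h2ag) to 55.9 CPM (Hist3h2a) in the tested H2A genes. In the tested H1 genes they ran from 3.22 CPM (Hist1h1b) to 149 CPM (Hist1h1e). The total of a type was therefore weighted toward its most abundant genes. Within the row of a gene, the E18 samples were usually spread wider than the P5 samples, and replicate 1 was usually the highest of them.

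The H1 genes encode the linker histones, which bind the DNA between nucleosomes and compact the fibre. All 5 tested H1 genes were higher at E18. Hist1h1e (chr13:23620629-23622558), the most abundant histone gene in the table, stood at 252, 246 and 215 CPM at E18 (replicates 1, 3 and 4) and 66.7, 59.5 and 56.3 CPM at P5 (replicates 6, 8 and 9). The ages did not overlap, and the 3 E18 samples lay close together: the means were 238 ± 20.03 and 60.8 ± 5.34 CPM (SD, n = 3 each), with a log2 fold change of 1.97 ± 0.11 (SE) and an adjusted p of 3.31e-05. In GENCODE the downstream end of Hist1h1e overlaps the start of Hist1h2be on the same strand. Reads were counted on RefSeq genes, and Hist1h1e has 782 bases in RefSeq against 1930 in GENCODE. The overlap need not have touched its counts.

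Hist1h1c (chr13:23738808-23740367) stood at 122, 82.2 and 80.3 CPM at E18 and 27.0, 31.2 and 27.9 CPM at P5, a log2 fold change of 1.73 ± 0.17 (SE, adjusted p = 0.000271). Hist1h1a (chr13:23763666-23764406) stood at 46.2, 36.5 and 26.4 CPM against 8.91, 6.796 and 5.10 CPM, a log2 fold change of 2.39 ± 0.25 (adjusted p = 0.000357). In Hist1h1d (chr13:23553262-23560686), whose stem-loop and promoter are shown above, the levels were 48.0, 28.4 and 21.5 CPM against 4.91, 3.96 and 3.90 CPM, a log2 fold change of 2.94 ± 0.28 (adjusted p = 0.000271). In all 3 genes the lowest E18 sample was well above the highest P5 sample. Hist1h1b (chr13:21779883-21780625) was different: it stood at 14.9, 2.68 and 0.420 CPM at E18 and 0.767, 0.488 and 0.0744 CPM at P5, so that E18 replicate 4 lay within the P5 samples. Its log2 fold change was 3.76 ± 1.18 (adjusted p = 0.0307), and its call was lost when E18 replicate 1, P5 replicate 6, P5 replicate 8 or P5 replicate 9 was left out. Without E18 replicate 1 its log2 fold change was 1.82. The testis gene Hist1h1t was below the filter, with 4 to 8 reads per sample at E18 and 5 to 21 at P5.

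H2A forms a dimer with H2B and carries the acidic patch that many chromatin proteins bind. Of 18 H2A genes 11 were tested, 9 were higher at E18 and 2 did not pass the test. The H2A total was dominated by Hist3h2a (chr11:58954685-58956830), which stood at 79.4, 78.4 and 69.3 CPM at E18 and 34.7, 34.6 and 39.1 CPM at P5 (log2 fold change 1.07 ± 0.10, adjusted p = 0.000243). Both ages formed tight groups for this gene. Hist1h2ak, at much lower level, stood at 9.05, 4.40 and 5.75 CPM against 0.947, 1.62 and 1.15 CPM (log2 fold change 2.37 ± 0.32, adjusted p = 0.000913).

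The pair of neighbouring Hist2 genes behaved unlike the other H2A genes. Hist2h2ab (chr3:96219865-96220308) stood at 4.27, 4.65 and 4.68 CPM at E18 and 5.87, 5.37 and 6.57 CPM at P5: every E18 sample was below every P5 sample, with a log2 fold change of -0.39 ± 0.16 (adjusted p = 0.0758). It was called lower by DESeq2 and when P5 replicate 8 was left out. Hist2h2ac (chr3:96220361-96220880), next to it, stood at 2.77, 1.86 and 2.54 CPM against 2.39, 2.04 and 3.16 CPM, and the ages overlapped (log2 fold change -0.08 ± 0.25, adjusted p = 0.805). Their shared stretches were few, at 1.4% and 6.9%.

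The largest H2A change was that of Hist1h2an (chr13:21786826-21787218), from 100, 58 and 42 reads at E18 to 3, 5 and 1 reads at P5. The ratio of normalized reads was 21.9, with an exact 95% interval of 11.3 to 48.5 that covers counting error only, and the adjusted p was 0.000967. Of its 100-base stretches 83.3% were shared with other genes, so the assignment of these reads to 1 copy is uncertain. The smallest called rise was that of Hist1h2ae, at 2.75, 1.73 and 1.49 CPM against 1.13, 1.25 and 0.670 CPM (log2 fold change 0.97 ± 0.33, adjusted p = 0.0414), and that call was lost without E18 replicate 1, E18 replicate 3, P5 replicate 6 or P5 replicate 9. The other 5 called H2A genes had log2 fold changes of 2.20 to 2.59. Below the filter, Hist1h2af had 89 reads over the 3 E18 samples, 70 of them in replicate 1, and 10 over the 3 P5 samples. Hist1h2ah, Hist1h2ao and Hist2h2aa2 had 31, 15 and 15 reads over E18 and 8, 1 and 36 over P5.

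H2B completes the dimer, and its C-terminal helix carries the lysine that is ubiquitylated during transcription. Of 19 H2B genes 16 were tested and 15 were higher at E18. The 2 most abundant had small changes: Hist3h2ba (chr11:58948920-58949533) stood at 82.7, 98.4 and 93.2 CPM at E18 and 60.2, 56.1 and 53.0 CPM at P5 (log2 fold change 0.70 ± 0.10, adjusted p = 0.00118). Hist2h2bb (chr3:96269752-96270132) stood at 67.0, 61.4 and 46.4 CPM against 38.1, 31.1 and 43.0 CPM (log2 fold change 0.64 ± 0.16, adjusted p = 0.0136), with E18 replicate 4 only just above the highest P5 sample. Leaving out P5 replicate 6 ended this call. Next came Hist1h2be, at 40.0, 30.0 and 26.7 CPM against 11.5, 18.25 and 13.6 CPM (log2 fold change 1.16 ± 0.20, adjusted p = 0.0027). The annotated exons of Hist1h2be cover 4446 bases, far more than a histone message, so its reads need not all come from the histone transcript.

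Hist2h2be, an H2B variant gene known for its expression in olfactory neurons, stood at 17.3, 18.7 and 20.1 CPM at E18 and 13.2, 11.6 and 11.8 CPM at P5 (log2 fold change 0.62 ± 0.12, adjusted p = 0.00381). Hist1h2bc stood at 13.8, 9.60 and 8.49 CPM against 4.26, 5.72 and 5.27 CPM (log2 fold change 1.06 ± 0.21, adjusted p = 0.00473). Changes were much larger in the H2B genes of the Hist1 cluster at lower level. Hist1h2bb, whose promoter is shown above, stood at 25.2, 13.9 and 8.39 CPM against 2.87, 2.78 and 1.74 CPM (log2 fold change 2.68 ± 0.39, adjusted p = 0.00124). The largest called rise was that of Hist1h2bk, at 3.65, 1.08 and 0.895 CPM against 0.214, 0.163 and 0.0638 CPM (log2 fold change 3.66 ± 0.66, adjusted p = 0.00296), of whose stretches 70.8% were shared. Hist1h2bn followed at 26.0, 10.4 and 8.79 CPM against 1.35, 1.84 and 0.989 CPM (log2 fold change 3.43 ± 0.44, adjusted p = 0.000799). In each of these 3 genes replicate 1 was the highest E18 sample, and even the lowest E18 sample exceeded every P5 sample.

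The pseudogene Hist3h2bb-ps had the smallest called H2B change, at 17.8, 22.3 and 17.99 CPM against 14.04, 15.6 and 15.7 CPM (log2 fold change 0.36 ± 0.13, adjusted p = 0.0465). That call was lost without a filter on low counts and without each sample other than P5 replicate 8. Hist1h2bh did not pass the test: it stood at 2.59, 0.901 and 0.464 CPM against 0.665, 0.599 and 0.585 CPM (log2 fold change 1.09 ± 0.55, adjusted p = 0.137), and its E18 replicate 4 was below every P5 sample.

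H3 carries many of the best studied histone modifications on its tail. All 10 tested H3 genes were higher at E18, and in all 10 every E18 sample was above every P5 sample. Hist1h3e (chr13:23561534-23562369) stood at 43.2, 33.2 and 31.6 CPM at E18 and 12.01, 15.6 and 12.1 CPM at P5 (log2 fold change 1.45 ± 0.16, adjusted p = 0.000436). Hist1h3f stood at 14.7, 10.02 and 10.1 CPM against 6.01, 7.30 and 7.52 CPM (log2 fold change 0.74 ± 0.19, adjusted p = 0.0131), the smallest H3 change. Hist1h3a stood at 7.87, 5.797 and 5.35 CPM against 1.35, 1.30 and 0.850 CPM (log2 fold change 2.44 ± 0.26, adjusted p = 0.000355). For Hist1h3a and Hist1h3e the differences between the ages were several times the spread within either age.

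The largest H3 change, that of Hist1h3b (chr13:23752267-23752886), was carried mainly by 1 sample. Its levels were 7.29, 1.34 and 0.254 CPM at E18 and 0.147, 0.223 and 0.0532 CPM at P5 (log2 fold change 4.37 ± 1.11, adjusted p = 0.0137). Hist1h3c had the same shape, at 3.58, 0.571 and 0.254 CPM against 0.135, 0.163 and 0.0319 CPM (log2 fold change 3.71 ± 1.01, adjusted p = 0.0176). In both genes E18 replicate 4 was only just above the highest P5 sample, and neither was called when P5 replicate 6 or P5 replicate 9 was left out. The calls of Hist1h3f, Hist1h3g and Hist2h3b were also lost when certain single samples were left out, among them P5 replicate 6 in each case.

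H4 pairs with H3 at the centre of the nucleosome and varies least among the histones. The H4 genes changed least between the ages: 11 of 13 were higher at E18, their median log2 fold change was 1.01, and the largest was 1.46. Hist1h4d (chr13:23581598-23582735) stood at 87.9, 62.8 and 71.2 CPM at E18 and 39.5, 45.6 and 45.4 CPM at P5 (log2 fold change 0.76 ± 0.13, adjusted p = 0.00268). Hist1h4c stood at 43.7, 35.3 and 37.6 CPM against 20.9, 24.0 and 27.6 CPM (log2 fold change 0.69 ± 0.13, adjusted p = 0.00428). Hist2h4 stood at 26.0, 22.9 and 24.5 CPM against 15.5, 11.96 and 18.9 CPM (log2 fold change 0.66 ± 0.16, adjusted p = 0.0124), a call that did not hold when P5 replicate 6 was left out. The ages were separate in all 3 genes, by less than 2-fold.

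The largest called H4 rise was that of Hist1h4j, at 12.1, 6.66 and 9.05 CPM against 2.66, 4.39 and 3.04 CPM (log2 fold change 1.46 ± 0.27, adjusted p = 0.00321). Hist4h4 (chr6:136801553-136804415), the only member on its chromosome, stood at 19.0, 18.14 and 17.8 CPM against 8.20, 8.81 and 10.4 CPM (log2 fold change 1.01 ± 0.13, adjusted p = 0.000714), with almost no spread within E18. Hist1h4f, at 14.8, 8.01 and 8.48 CPM against 5.88, 7.58 and 8.84 CPM, overlapped between the ages and did not pass the test (log2 fold change 0.49 ± 0.26, adjusted p = 0.155). Hist1h4b, at 2.33, 1.06 and 1.73 CPM against 1.52, 1.51 and 2.30 CPM, also overlapped (log2 fold change -0.06 ± 0.32, adjusted p = 0.891). The calls of Hist1h4a and Hist1h4m were lost without P5 replicate 6 and E18 replicate 3, respectively.

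**Figure D2:**
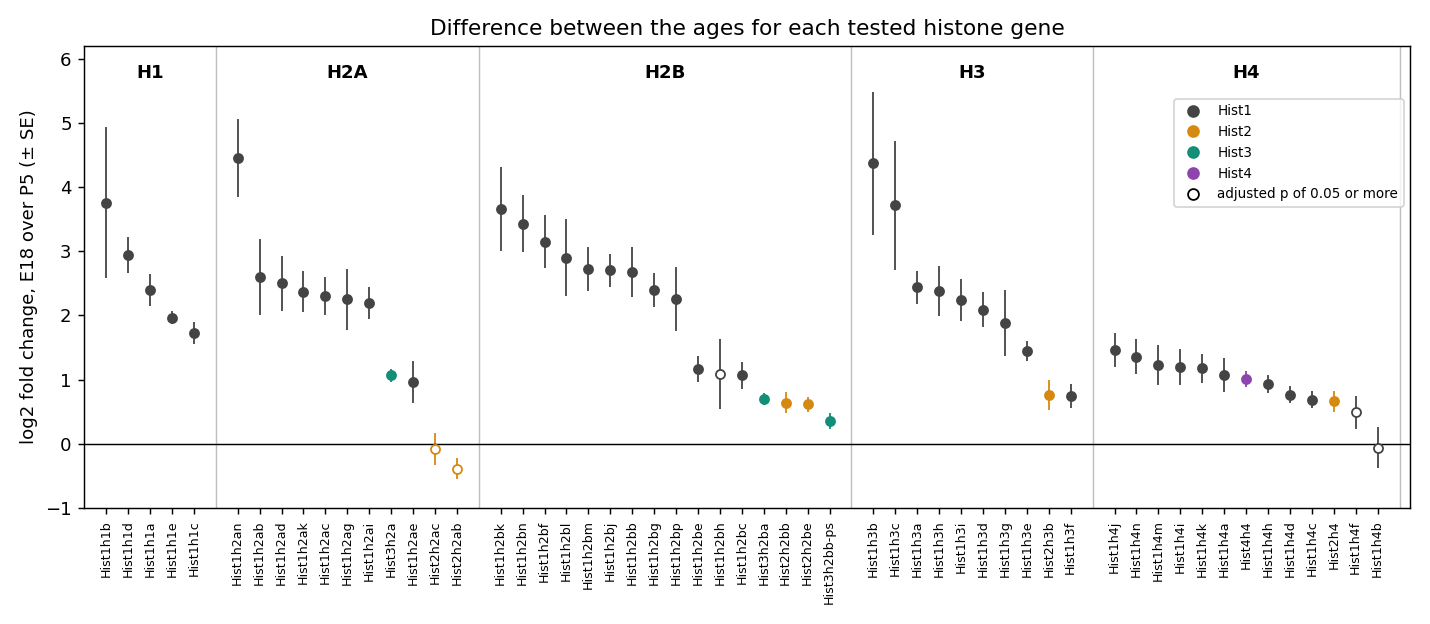
Log2 fold change of E18 over P5 for each tested histone gene, with its standard error from edgeR, grouped by histone type and coloured by genomic cluster. Filled points had an adjusted p under 0.05, and the 5 open points did not; genes of the Hist1 cluster reach 4.45, and the H4 genes do not exceed 1.46.

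The plot of fold changes by type shows the spread within types as well as between them. In H2A and H2B the genes of the Hist2 and Hist3 clusters lay at the low end, at log2 fold changes of -0.39 to 1.07, and most Hist1 genes lay above 2.

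Summed over all 68 genes, histone levels were 1332, 1065 and 982 CPM in E18 replicates 1, 3 and 4 and 450, 467 and 468 CPM in P5 replicates 6, 8 and 9, a ratio of the means of 2.44. The E18 samples were spread widely and the P5 samples were nearly equal. Summed H1 was 408 ± 70.7 CPM at E18 and 101 ± 7.53 CPM at P5 (SD, n = 3 each), a ratio of 4.02. Summed H3 was 74.6 ± 21.2 against 26.3 ± 2.52 CPM, a ratio of 2.84. The ratios were lower in the other core types: 2.10 for H2A (104 ± 12.7 against 49.3 ± 2.88 CPM), 2.003 for H2B (304 ± 47.4 against 152 ± 0.618 CPM) and 1.77 for H4 (236 ± 39.4 against 133 ± 13.9 CPM). Sums are given because near-identical copies can exchange reads within a type, and they carry no test. Reads that were lost in counting because they fit several copies are not restored by a sum.

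Linker histone made up a larger part of the histone total at E18. The H1 share of all members' CPM was 36.3%, 37.2% and 35.0% in the E18 samples and 24.1%, 21.9% and 19.96% in the P5 samples, so the ages did not overlap. The H4 share ran the other way, at 20.9%, 19.0% and 23.1% against 26.2%, 29.1% and 31.0%. The H2B share was 26.5%, 28.3% and 26.3% against 33.8%, 32.6% and 32.3%. Shares of H2A (8.83% to 9.46% against 10.3% to 11.3%) and H3 (6.08% to 7.43% against 5.41% to 6.24%) differed less. Per kilobase of transcript, the summed levels at E18 were 534 CPM for H1, 213 for H2A, 579 for H2B, 114 for H3 and 597 for H4, and at P5 they were 133, 100, 289, 36.5 and 337. In counted reads, H3 was thus the lowest type per length at both ages, and H1 was close to H2B and H4 at E18 but below them at P5. The types differed in shared sequence: H1 genes shared 0.0% to 5.1% of their 100-base stretches with other genes, and H3 genes 20.4% to 92.0%. Reads lost between copies would lower a type's sum, and the part of this in the order and shares of the types was not tested.

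**Figure D3:**
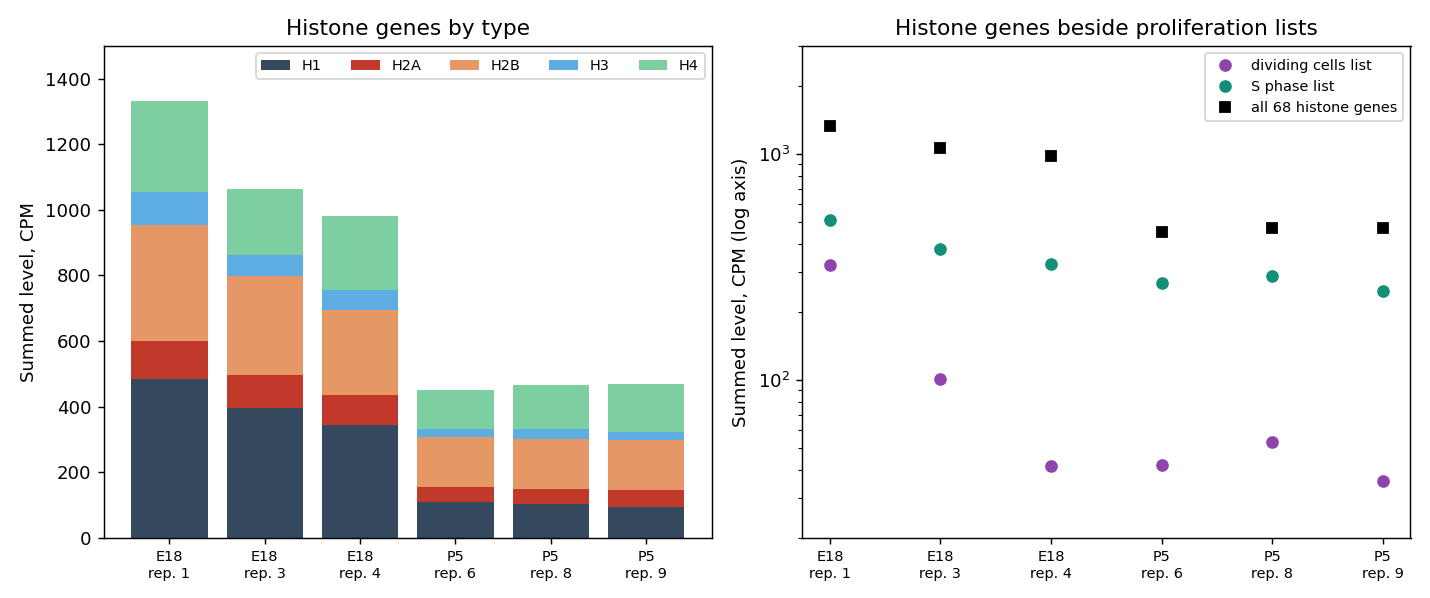
Left, summed CPM of the histone genes in each sample, stacked by type, from 0. Right, the sum over all 68 histone genes (squares) beside the sums of the dividing cells list and the S phase list on a log axis. Histone sums are 982 CPM or more in the E18 samples and 468 CPM or less in the P5 samples. The dividing cells list of E18 replicate 4 (41.5 CPM) lies between P5 values, and its S phase list (327 CPM) lies above them.

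The stacked plot of summed levels shows that the H1 block shrank most between the ages and that the P5 samples were alike in every type. The panel on the right sets the histone sum beside the proliferation lists described further on.

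The genes that differed most between the ages belonged to the large cluster. The Hist1 cluster (chr13:21715763-23934851) holds 54 members, of which 45 were tested and 42 were higher at E18. Their median log2 fold change was 2.24, and 37 of the 39 genes that were at least 2-fold higher lie there. Of the 10 Hist2 members (chr3:96219865-96270132), 6 were tested and 4 were higher, with a median of 0.63 and none at 2-fold. All 3 Hist3 members (chr11:58948920-58956830) were higher, with a median of 0.70. Summed levels had a ratio of 3.00 in Hist1 (810 against 270 CPM), 1.48 in Hist2 (111 against 75.5 CPM) and 1.73 in Hist3 (186 against 108 CPM). The contrast held within types: H2A genes of Hist1 rose with a median of 2.34 (8 tested, 8 higher), whereas the 2 tested H2A genes of Hist2 were not called. H2B genes of Hist1 had a median of 2.69 (12 tested, 11 higher), against 0.63 for the 2 of Hist2. The H4 genes of Hist1 had a median of 1.07, close to the 1.01 of Hist4h4. The difference between clusters was not tested.

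Sequence shared between copies moved with the size of the change. Of the 68 genes 26 shared at most 20% of their 100-base stretches with another gene, and 24 of these were tested: 20 were higher at E18, with a median log2 fold change of 1.08. Of the 31 tested genes with more sharing 30 were higher, with a median of 2.25. The first set held most of the reads, with a summed level of 907 ± 112 CPM at E18 against 389 ± 7.42 CPM at P5, and the second stood at 219 ± 72.7 against 72.5 ± 9.18 CPM. The ratios of these sums were 2.33 and 3.02, in the order given. The part of sharing in these changes was not tested. In addition, 24 of the 68 loci overlap another annotated GENCODE gene. Where the RefSeq genes used for counting overlap as well, the reads of such pairs could not be told apart without a stated strand setting. Among the genes with little sharing 17 overlap no other gene, and 16 of these were tested: 14 were higher at E18, and their sum stood at 487 ± 73.0 against 230.1 ± 4.98 CPM, a ratio of 2.12 (a grouping added after the values were seen). Genes with the stem-loop in their annotated transcripts (37 tested, 33 higher, ratio of sums 2.52) were higher at E18 in most members. So were those whose annotated transcripts, some of them short, did not hold it (18 tested, 17 higher, ratio 2.15).

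Among the E18 samples, replicate 1 was the highest in 50 of the 55 tested genes, against 27.6% of all genes, and the median ratio of replicate 1 to replicate 4 was 1.56, against 0.979 over all genes. The genes differed widely in this ratio. It was 35.4 for Hist1h1b, 28.7 for Hist1h3b, 14.1 for Hist1h3c, 5.59 for Hist1h2bh and 5.19 for Hist1h2ab. In contrast it was 1.17 for Hist1h1e, 1.06 for Hist4h4, 1.04 for Hist1h4i, 0.887 for Hist3h2ba and 0.858 for Hist2h2be.

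Markers of dividing cells moved in the same way within E18. A list of 16 genes of mitosis and the cell cycle, among them Mki67 and Top2a, summed to 322, 101 and 41.5 CPM at E18 and 42.1, 52.8 and 35.8 CPM at P5, and none of the 16 was at 0 in every sample. Of these 9 were higher at E18, against 20.8% of all tested genes. By edgeR 0 were lower (0 at an unadjusted p under 0.05 and 0 by DESeq2), against 22.5% of all tested genes. The median log2 fold change was 1.55. Leaving out single samples moved the count of higher genes to 2 (E18 replicate 1), 5 (E18 replicate 3), 14 (E18 replicate 4) or 0 (P5 replicate 6 or 9). A list of 12 retinal progenitor genes summed to 447, 248 and 121 CPM at E18 against 186, 207 and 217 CPM at P5 (7 higher, 1 lower). The lower gene, Dkk3, made up 89.5% to 92.6% of the P5 sums, and without it the other 11 genes summed to 295, 127 and 25.5 CPM at E18 against 19.6, 20.97 and 16.2 CPM at P5, so that every E18 sample was above every P5 sample and replicate 4 was the closest to P5. This sum was taken after the values were seen. That count of 7 was 1 without P5 replicate 6 and 3 without P5 replicate 9.

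E18 replicate 4 gives the histone levels of an E18 library in which the dividing-cell sum lay within the P5 samples. Its progenitor sum without Dkk3 lay above them. Its sum over the S phase list described below also lay above them, at 327 CPM against 247 to 287 CPM. In replicate 4, 49 of the 55 tested histone genes were above every P5 sample, against 35.7% of all genes. The median ratio to the P5 mean was 2.31, against 0.996 over all genes. The ratio was 3.53 for Hist1h1e, 2.80 for Hist1h1c, 5.05 for Hist1h1d, 3.81 for Hist1h1a, 2.39 for Hist1h3e, 1.64 for Hist1h4d and 1.92 for Hist3h2a. It was 0.947 for Hist1h1b, 0.752 for Hist1h2bh and 0.789 for Hist2h2ab. With replicate 4 as the only E18 sample, and assuming that it varies as the P5 samples do, 29 histone genes were called higher and 0 lower by edgeR (39 and 0 at an unadjusted p under 0.05), while the count over all genes fell to 656 higher and 977 lower. In bulk samples, fewer cells that express a gene and less of its RNA per cell cannot be told apart.

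**Figure D4:**
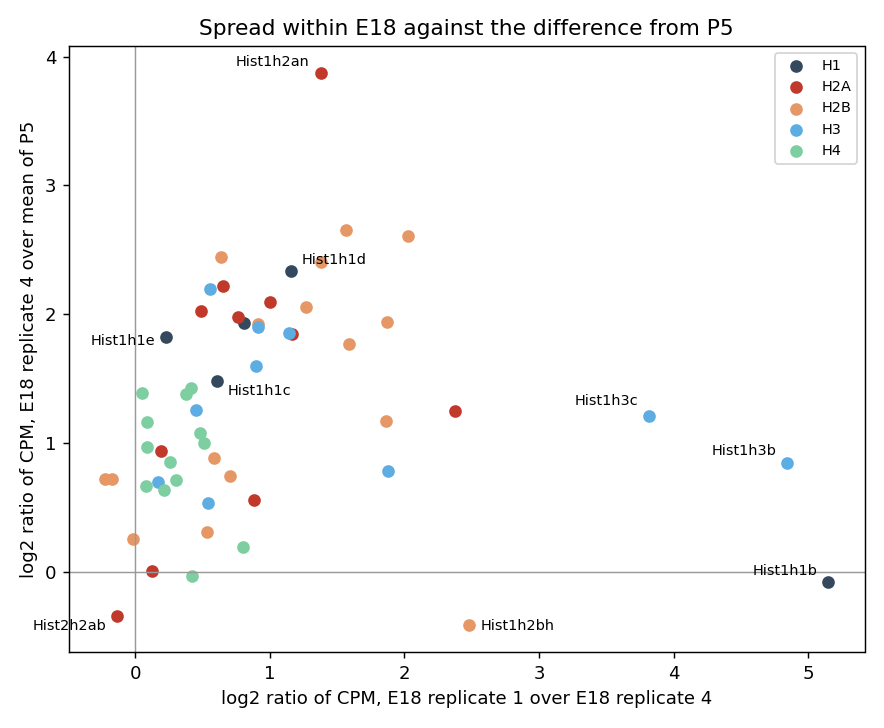
Each tested histone gene by the log2 ratio of its CPM in E18 replicate 1 to that in E18 replicate 4 (horizontal) and the log2 ratio of its CPM in E18 replicate 4 to the mean of the P5 samples (vertical), coloured by type. Most genes lie in the upper left, above 0 on the vertical axis and under 2.5 on the horizontal one, with Hist1h1b, Hist1h3b and Hist1h3c far to the right.

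The plot of spread within E18 sets both ratios side by side. In replicate 4, 4 of 5 tested H1 genes, 9 of 11 H2A, 15 of 16 H2B, 10 of 10 H3 and 11 of 13 H4 genes were above every P5 sample. The median ratio of replicate 4 to the P5 mean was 1.96 for the H4 genes and their median ratio of replicate 1 to replicate 4 was 1.23, reaching 1.75 in Hist1h4f. Hist1h4b and Hist1h4f lay within the P5 samples in replicate 4, and Hist1h1b and Hist1h2bh stood above P5 only in E18 replicates 1 and 3, the samples with the higher dividing-cell sums.

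Among genes that accompany DNA synthesis, the calls were mixed, and the list was not tested against the histone genes. Over all tested genes 20.8% were higher at E18 and 22.5% lower. Of 20 S phase genes 11 were higher at E18, 8 did not pass the test, and 1 was lower (Ccne1, the cyclin of the entry into S phase, log2 fold change -0.49 ± 0.13, adjusted p = 0.0182), with a median of 0.59. Their summed level was 508, 380 and 327 CPM at E18 and 268, 287 and 247 CPM at P5, so the ages did not overlap and replicate 4 was closest to P5. The largest rise was that of Mcm3, a subunit of the replicative helicase, at 14.8, 2.59 and 0.839 CPM against 0.790, 0.406 and 0.542 CPM (log2 fold change 3.39 ± 0.92, adjusted p = 0.0175). The count of 11 was 7 without E18 replicate 1, 5 without P5 replicate 6 and 6 without P5 replicate 9.

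Most of the factors that transcribe and process histone mRNA did not pass the test. Of 18 measured genes 2 were higher, 2 were lower and 14 did not pass the test, and the median log2 fold change was 0.11. The shares over all tested genes were 20.8% higher and 22.5% lower. Slbp, the stem-loop binding protein, stood at 59.1, 56.4 and 54.8 CPM at E18 and 50.3, 63.3 and 47.6 CPM at P5 (log2 fold change 0.08 ± 0.12, adjusted p = 0.625). Npat, the activator that gathers at the histone loci, stood at 47.5, 52.4 and 45.5 CPM against 43.4, 62.6 and 43.2 CPM (log2 fold change -0.04 ± 0.15, adjusted p = 0.862). Casp8ap2, another component of the histone locus body, stood at 67.7, 70.3 and 63.0 CPM against 64.9, 73.0 and 56.7 CPM (log2 fold change 0.05 ± 0.11, adjusted p = 0.756). The ages overlapped in all 3.

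Lsm11, a protein of the U7 ribonucleoprotein that directs cleavage of the histone pre-mRNA, was lower at E18. It stood at 139, 144 and 143 CPM against 253, 297 and 309 CPM, with tight groups at both ages (log2 fold change -1.01 ± 0.10, adjusted p = 0.000262). Hinfp, which activates H4 genes, was higher at 29.9, 32.6 and 31.8 CPM against 17.98, 23.3 and 16.5 CPM (log2 fold change 0.70 ± 0.14, adjusted p = 0.00463). Ncbp1, a subunit of the cap-binding complex, was higher by a log2 fold change of 0.30 ± 0.09 (adjusted p = 0.0207). Lsm1, of the ring that takes part in mRNA decay, was lower by -0.34 ± 0.09 (adjusted p = 0.0181). The count of higher genes in this list was 1 without E18 replicate 3 or P5 replicate 9 and 6 without P5 replicate 8. The count of lower genes was 1 without any one of the E18 replicates.

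Replacement histones were also higher at E18. Of 12 genes 10 were higher and 0 lower by edgeR (0 at an unadjusted p under 0.05 and 0 by DESeq2), with a median log2 fold change of 0.71. The median was 1.73 over the 55 tested clustered histone genes, but 0.63 in Hist2 and 0.70 in Hist3. Over all tested genes the shares were 20.8% higher and 22.5% lower. The count of 10 ran from 7 to 9 without 1 sample. H3f3b and H3f3a, which both encode H3.3, stood at 1324, 1362 and 1210 CPM against 730, 868 and 544 CPM (log2 fold change 0.86 ± 0.15, adjusted p = 0.00297) and at 579, 654 and 625 CPM against 431, 423 and 303 CPM (0.68 ± 0.14, adjusted p = 0.00479). H1f0, the linker histone of differentiated cells, stood at 130, 117 and 103 CPM against 72.7, 70.9 and 71.9 CPM (log2 fold change 0.70 ± 0.10, adjusted p = 0.00129). H2afz, the H2A variant of promoters, stood at 86.3, 68.9 and 70.2 CPM against 53.9, 54.9 and 52.1 CPM (log2 fold change 0.49 ± 0.11, adjusted p = 0.00752). The ages were separate in all 4 genes.

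The largest rise among them was that of Cenpa, the H3 of centromeres, at 3.79, 1.35 and 0.707 CPM against 0.474, 0.609 and 0.340 CPM (log2 fold change 2.03 ± 0.57, adjusted p = 0.0208), whose call was lost without E18 replicate 1, P5 replicate 6 or P5 replicate 9. H2afx, the H2A variant phosphorylated at DNA breaks and one of the non-members with the stem-loop, stood at 14.3, 10.4 and 10.2 CPM against 9.82, 10.6 and 10.1 CPM and did not pass the test (log2 fold change 0.19 ± 0.16, adjusted p = 0.355).

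Of 15 histone chaperones 5 were higher (Ubn1, Ssrp1, Hjurp, Supt16 and Cabin1, log2 fold changes of 0.25 to 0.58), against 20.8% of all tested genes. By edgeR 0 were lower (0 at an unadjusted p under 0.05 and 0 by DESeq2), against 22.5% of all tested genes. The median of the list was 0.27, and its counts were not tested against these shares. Among chaperones tied to DNA replication, 3 that did not pass the test were Chaf1a (log2 fold change 0.33 ± 0.22, adjusted p = 0.264), Chaf1b (0.57 ± 0.38, adjusted p = 0.255) and Asf1b (0.44 ± 0.55, adjusted p = 0.551). Asf1b stood at 3.01, 1.04 and 0.497 CPM against 0.936, 1.30 and 1.12 CPM, high in E18 replicate 1 and lowest in E18 replicate 4. The count of 5 was 2 without E18 replicate 1, 0 without E18 replicate 3, 1 without P5 replicate 6 and 2 without P5 replicate 9.

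**Figure D5:**
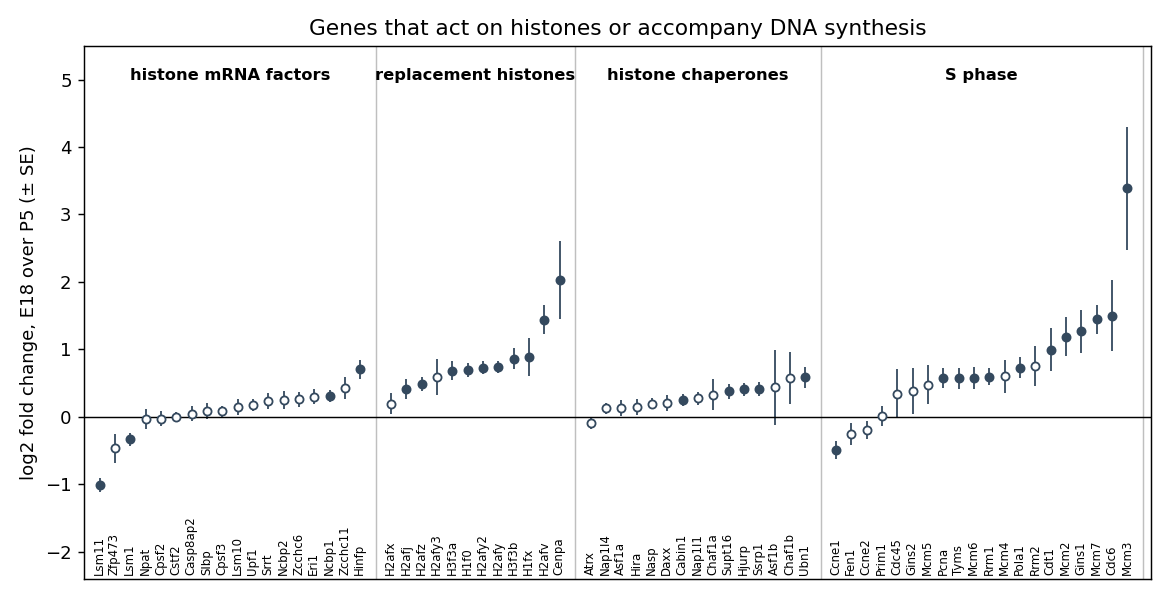
Log2 fold change of E18 over P5, with its standard error, for the genes of 4 lists (histone mRNA factors, replacement histones, histone chaperones and S phase genes). Filled points had an adjusted p under 0.05; most histone mRNA factors lie near 0, with Lsm11 at -1.01, and 10 of 12 replacement histones are filled and above 0.

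The plot of the 4 lists shows that most histone mRNA factors and chaperones stayed within 0.6 of 0 on the log2 scale, replacement histones lay mainly between 0.4 and 1, and S phase genes were spread widest.

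Markers of other retinal cells were compared in the same libraries, in which 20.8% of all tested genes were higher at E18 and 22.5% lower. The summed level of 11 amacrine genes was 1284, 1296 and 1209 CPM at E18 and 1996, 1745 and 2221 CPM at P5 (5 higher, 2 lower of 10 tested). Photoreceptor genes summed to 4.99 to 27.2 CPM at E18 and 4.21 to 5.36 CPM at P5 (5 higher, 1 lower of 10). Glial genes summed to 460 to 504 against 369 to 385 CPM (3 higher, 1 lower of 8). Microglial genes summed to 2.399 to 3.29 against 1.79 to 2.46 CPM (1 higher of 8), and Tmem119, which marks microglia, had a read in only 2 samples. Endothelial and pericyte genes summed to 16.5 to 72.8 against 14.6 to 17.9 CPM (1 higher, 3 lower of 8). The higher gene was Kdr, a receptor for VEGF, and without it the sum turned, with 1.68 to 3.24 CPM at E18 against 6.56 to 9.85 CPM at P5 (also taken after the values were seen). Without 1 sample the count of higher genes ran from 3 to 7 for the amacrine, 4 to 5 for the photoreceptor, 2 to 4 for the glial and 0 to 1 for the microglial list. Of the 15 RGC markers 4 were higher and 5 lower, among the latter Thy1, the antigen used for capture, at 212, 217 and 312 CPM against 500, 469 and 690 CPM. The part of these cell types in the histone levels was not tested.

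RNAs without a poly(A) tail were also higher at E18. The libraries were labelled as polyA RNA, but the protocol names a kit that removes ribosomal RNA, and RNAs known to lack a tail were abundant. Rpph1, the RNA of ribonuclease P, stood at 2971, 2548 and 3431 CPM at E18 and 1214, 1742 and 1633 CPM at P5 (log2 fold change 0.96 ± 0.15, adjusted p = 0.00181). Rmrp, the RNA of ribonuclease MRP, had a log2 fold change of 0.85 ± 0.14 (adjusted p = 0.00226) and Terc, the telomerase RNA, one of 1.59 ± 0.24 (adjusted p = 0.00142). Of 4 tested RNAs of this kind 3 were higher, against 20.8% of all tested genes. The summed level of the list was 3437 to 4120 CPM at E18 against 1562 to 2185 CPM at P5. This level moved with the histone levels between the ages. Within E18 replicate 4 was the highest, but Rpph1 made up most of the sum (77.4% to 79.7% at P5). After the values were seen, the sum was also taken without Rpph1. It was then 713, 890 and 689 CPM in E18 replicates 1, 3 and 4, against 348 to 477 CPM at P5. Without Rpph1, replicate 4 was thus the lowest of the E18 samples and replicate 3 the highest. The median log2 fold change of the histone genes, 1.73, was above those of Rpph1, Rmrp and Terc, and the part of RNA selection in the histone result was not tested.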

How the data were processed

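RNA was sequenced from 3 E18 and 3 P5 samples of immunopanned mouse RGCs. As the authors describe, paired-end reads from ribosomal-RNA-depleted libraries were aligned with STAR to mm10 and counted per RefSeq gene with HT-seq. Strand and multiple-mapping settings are not given in the sources used here. The submitters' processing notes name CASAVA 1.8.2, edgeR and mm10. The deposited raw counts per gene were the only values used. The deposited normalized counts (a signal scaled by the authors), the authors' log2 fold changes, the deposited p-values and false discovery rates, and the deposited rank (a score) hold the authors' own comparison and were not used. The column of E18 replicate 1 carries the numbers 1, 2 and 5, and whether it pools preparations was not given.

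Counts were fitted over all genes with edgeR 4.0.16 (R 4.3.3): TMM scaling, filterByExpr (minimum count 10, here about 0.108 CPM in 3 samples), the quasi-likelihood test of age and Benjamini-Hochberg adjustment over 16449 genes with a threshold of 0.05. Fold changes are E18 over P5. The scripts were tested on simulated data. DESeq2 1.42.0, other scalings and filters and leaving out each sample were the alternatives. Libraries differed by more than sampling noise (chi-square per degree of freedom of 32.1 to 149 between replicates). Ribosomal precursor reads (Rn45s) made up 0.0953% to 0.329% of counts.

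Members, gene lists and motifs were chosen with earlier results of these data known, and TTTGCAT and AAACACA were added after the promoter windows had been seen. All members may be named. Full statistics go to the 3 most abundant tested genes and the largest called changes of each type, and to members with roles of their own. Hist1h2ab, Hist1h2bb, Hist1h2bn and other members named for their spread within E18 were chosen after their values were seen. Symbols were matched to RefSeq for 62 of 68 genes. Transcripts and coordinates are from GENCODE M21. Levels per kilobase use the shorter of the RefSeq gene span and the GENCODE exons. The list of histone mRNA factors has 18 of its 19 symbols in the table, and that of RNAs without a tail has 6 of 9. Protein sequences were not used here.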

Additional observations from a re-analysis of the deposited data

How the results depend on the processing

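No paired analysis was possible because the ages share no replicate number. The count of histone genes higher at E18, 50, was 50 with DESeq2's size factors, with upper-quartile scaling and by DESeq2, 51 with no filter and 39 with a filter of 1 CPM in 3 samples, which tests fewer genes. Over the fits that leave out 1 sample it ran from 39 to 50, and histone genes lower at E18 ran from 0 to 1 (Hist2h2ab without P5 replicate 8). The latter count was also 1 with DESeq2. Of the 50 called genes 38 kept call and direction in every one of the 11 planned settings that tested them, and 12 lost the call in at least 1. A setting in which a gene was not tested did not count as a loss. The filter of 1 CPM in 3 samples left 43 histone genes tested, of which 39 were called. The ratios of summed levels ran from 3.65 to 4.34 (H1), 1.96 to 2.21 (H2A), 1.84 to 2.15 (H2B), 2.38 to 3.11 (H3) and 1.61 to 1.90 (H4) without 1 sample, and were close to the reported ones with library size alone.

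Without 1 sample, all genes higher ran from 2137 to 4135 and lower from 2438 to 4661, histone mRNA factors from 1 to 6 higher and 1 to 3 lower, histone chaperones from 0 to 7 higher, and S phase genes from 5 to 13 higher and 0 to 1 lower. DESeq2 called 4 histone mRNA factors higher. With E18 replicate 4 alone against P5, a setting chosen after seeing the data, the counts were 29 histone genes higher, 656 of all genes higher and 977 lower, 0 histone mRNA factors higher and 1 lower, 4 replacement histones, 0 chaperones and 1 S phase gene higher, and 0 S phase genes lower. Causes were not tested beyond the smaller number of samples.

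The sign of the log2 fold change turned only in results that had not passed the test, other than Hist1h1b, which was -0.065 with E18 replicate 4 alone. In that setting Hist1h2bh was -0.40, Hist2h2ac 0.016, Asf1b -1.16 and Casp8ap2 -0.032. Over the fits that leave out 1 sample, Hist1h4b ran from -0.35 to 0.20, Hist2h2ac from -0.24 to 0.11, Asf1b from -0.52 to 0.85, Casp8ap2 from -0.043 to 0.12, Npat from -0.14 to 0.15 and Slbp from -0.0036 to 0.19. With 3 samples per age, genes of few reads and those in which 1 sample stands apart are the least certain, and counts cannot be placed where copies are identical.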
